A study of Mus musculus with 3 samples.

Results

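The regions described here are places in the embryonic mouse liver genome where a strong FOXA2 peak overlapped a weak HNF4A peak. A FOXA2 peak counted as strong at a deposited score of 22 or more, and an HNF4A peak as weak at a score of 22 or less. Peaks of both factors were paired when they overlapped by 1 bp or more, and pairs within 10 kb of a region called in input chromatin were dropped. Of 2879 overlapping pairs, 366 met both score limits and 365 of these lay away from input. They made up 12.8% of the 2857 pairs left after the input filter (95% Wilson interval 11.6 to 14.05%, counting error only). The pairs were chosen by these deposited scores, so the scores themselves are no finding. The pairs involved 365 FOXA2 peaks and 363 HNF4A peaks.

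HNF4A is a nuclear receptor that binds DNA as a homodimer and drives the hepatocyte gene programme. FOXA2 is a forkhead factor that can engage DNA on nucleosomes, and factors of this class are known to open liver enhancers before other regulators occupy them. Hepatoblasts are the fetal liver progenitors from which hepatocytes and bile duct cells arise, and both factors act in that lineage. How strongly each factor occupies a common element can differ from element to element. The pairs were chosen for unlike scores, so they do not test this, and what is described is their layout and surroundings.

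The libraries were a FOXA2 ChIP, an HNF4A ChIP and an input without antibody, 1 of each. All came from wild-type C57BL/6 livers at embryonic day 14.5 that had been pooled and enriched for DLK1+ cells with magnetic beads. DLK1 marks hepatoblasts, but the purity of the sort cannot be checked in peak lists. With 1 library per group there was no replicate check, so no difference below carries a test.

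The deposited lists held 9338 FOXA2 peaks, 11703 HNF4A peaks and 1263 input regions. The score of a peak is the authors' own whole-number value without a stated definition, and library depth is unknown. It was read only within its list. A score of 22 sat at different heights in the lists: 25.6% of all FOXA2 peaks scored 22 or more, whereas 47.5% of all HNF4A peaks scored 22 or less. The lists ended at a lowest score of 11 for FOXA2 and 16 for HNF4A. A weak HNF4A peak was therefore one between the end of its list and just below its median score of 23.

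FOXA2 scores in the 365 pairs ran from 22 to 112, with a median of 31 and an interquartile range of 26 to 42. HNF4A scores ran from 16 to 22, with a median of 19. The median pair thus stood at the 87.9th percentile of the FOXA2 list and the 29.0th percentile of the HNF4A list. In 68 pairs the HNF4A peak had the lowest score of its list, 16, and the number of pairs at each score from 17 to 21 was between 49 and 57.

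**Figure D1:**
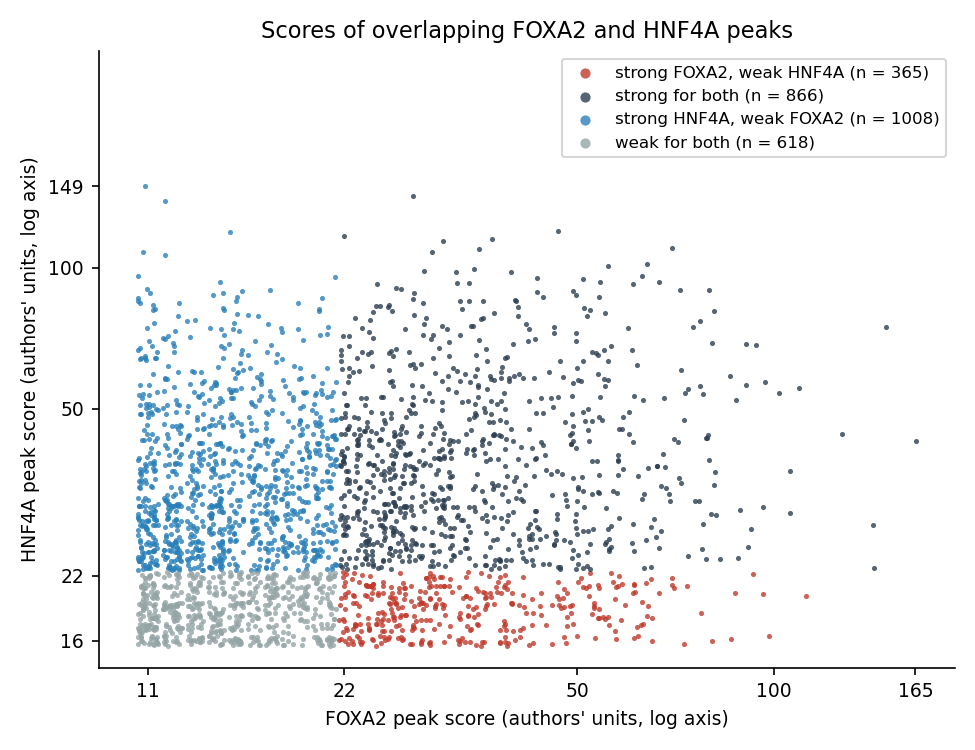
Deposited FOXA2 score (x axis, log scale) against deposited HNF4A score (y axis, log scale) for the 2857 overlapping pairs away from input, with a small random shift so that equal scores can be seen. Each point is 1 pair, and the 365 strong FOXA2 pairs with weak HNF4A fill the lower right corner up to a FOXA2 score of 112.

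The limits cut through a continuous range. Just inside, 22 pairs had a FOXA2 score of 22 and 31 had an HNF4A score of 22, and 3 pairs had both. Just outside, 38 pairs with weak HNF4A had a FOXA2 score of 21, and 37 pairs with strong FOXA2 had an HNF4A score of 23. The input filter removed a single pair, on the X chromosome, whose FOXA2 peak scored 23. Its nearest input region was 699 bp away. The closest remaining pair lay 29054 bp from input.

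A weak HNF4A partner was found at every level of FOXA2 score. Among FOXA2 peaks scoring 22 to 25, 13.4% had HNF4A overlap of score 22 or less and no stronger one (88 of 655, 11.04 to 16.3%). That part was 15.0% at scores of 26 to 34 and 15.96% at scores of 35 to 49. At 50 or more it was 18.7% (63 of 337, 14.9 to 23.2%). Over the same range the part with a strong HNF4A partner went up faster, at 29.6% for FOXA2 scores of 22 to 25 and 50.4% for scores of 50 or more. Weak partners were thus 31.2% of the overlapped FOXA2 peaks at 22 to 25 (26.1 to 36.8%), and 27.0% of those at 50 or more (21.7 to 33.1%). These intervals overlapped. In the FOXA2 peaks below 22 the figure was 37.9% (35.6 to 40.3%). Over all 2857 pairs, 34.4% had an HNF4A score of 22 or less and 43.1% had a FOXA2 score of 22 or more. Because the limits define the pairs, nothing is read from these shares.

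The 10 pairs of highest FOXA2 score show the range of shapes. The first lay on chromosome 11, with FOXA2 at 109349285 to 109349615 (mm9, score 112) and HNF4A at 109349288 to 109349629 (score 20). These peaks were almost the same interval, with centres 8.5 bp apart. The second, on chromosome 10, had FOXA2 at 96153625 to 96153969 (score 98) inside an HNF4A peak at 96153403 to 96153970 (score 16). There the HNF4A peak ended within a base of the FOXA2 peak on 1 side and reached 222 bp past it on the other.

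The third, on chromosome 11 at 24469712 to 24470128 (FOXA2 score 96), was paired with HNF4A of score 20, centred 53.5 bp away. It was also the most isolated of the 10, with its nearest further HNF4A centre at 283218 bp and its nearest further FOXA2 centre at 655740 bp. Chromosome 4 held a pair at 100954881 to 100955208 (FOXA2 score 87, HNF4A score 20), whose HNF4A peak of 571 bp was centred 155.5 bp to the left. Within 50 kb of it was an HNF4A peak of score 98. On chromosome 10 a pair at 19597066 to 19597402 (FOXA2 score 86) included HNF4A at score 16 and had no further HNF4A peak within 50 kb.

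In the next pairs a compact FOXA2 peak sat inside a much wider HNF4A peak. On chromosome 5, FOXA2 at 89119886 to 89120208 (score 81) spanned 323 bp and its HNF4A peak, of score 16, spanned 756 bp. On chromosome 4, FOXA2 at 103058809 to 103059215 (score 77) spanned 407 bp and its HNF4A peak, of score 18, spanned 975 bp. On chromosome 16, FOXA2 at 77330006 to 77330352 (score 74) spanned 347 bp and its HNF4A peak, of score 21, spanned 759 bp. The other two of the 10 lay on chromosome 18, with FOXA2 scores of 93 and 73 and HNF4A scores of 22 and 16. In all, 6 of these 10 FOXA2 peaks lay wholly inside the HNF4A peak and 7 of the 10 HNF4A peaks exceeded 500 bp. The FOXA2 peaks were 320 to 417 bp wide, against 298 to 975 bp for the HNF4A peaks. Over all 365 pairs, 43.0% of FOXA2 peaks lay wholly inside the HNF4A peak, and 47.6% did at FOXA2 scores of 50 or more (n = 63). The median HNF4A width at those scores was 427 bp. It was 464 bp at FOXA2 scores of 22 to 25, 459 bp at 26 to 34 and 461 bp at 35 to 49. The wide HNF4A peaks among these 10 are therefore not read as typical of high FOXA2 scores.

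**Figure D2:**
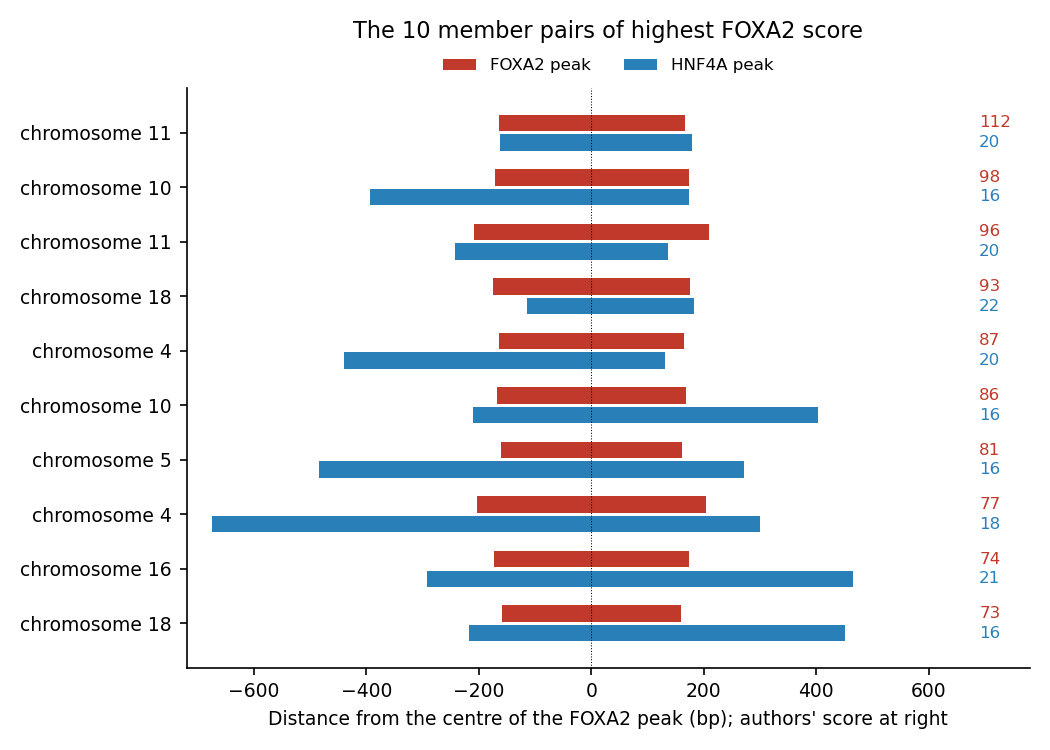
Extent of the FOXA2 peak (upper bar of each row) and the HNF4A peak (lower bar) in the 10 pairs of highest FOXA2 score, as distance in bp from the FOXA2 centre, with each deposited score at the right. FOXA2 bars are of nearly equal length, while HNF4A bars range from 298 to 975 bp and often reach past the FOXA2 peak on 1 side.

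Centres of the overlapping peaks nearly coincided in most pairs. The distance between FOXA2 and HNF4A centres had a median of 59 bp (interquartile range 27.5 to 110 bp), and the interval of that median from ranked values was 52 to 64.5 bp. The 2492 other overlapping pairs had a median of 58.8 bp (26.5 to 105 bp; interval of the median 55.5 to 61.5 bp). Centres lay within 100 bp in 71.5% of the strong FOXA2 pairs with weak HNF4A (66.7 to 75.9%) and in 72.8% of the others (71.0 to 74.5%). As a whole, then, the pairs differed from the rest by less than counting error.

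The others are a mixture, and splitting them by score placed the pairs between extremes. Pairs strong for both factors (FOXA2 22 or more, HNF4A over 22; n = 866) were centred more closely, with a median of 49.3 bp (44.5 to 53 bp) and 79.8% within 100 bp (77.0 to 82.3%). Pairs strong for HNF4A with weak FOXA2 (n = 1008) had a median of 59.5 bp and 72.2% within 100 bp (69.4 to 74.9%). Pairs weak for both (n = 618) had a median of 73 bp (67 to 78 bp) and 63.9% within 100 bp (60.1 to 67.6%). A weak peak of either factor therefore came with a looser fit than a pair of strong peaks, and the loosest fit was found where both were weak. None of these differences was tested.

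**Figure D3:**
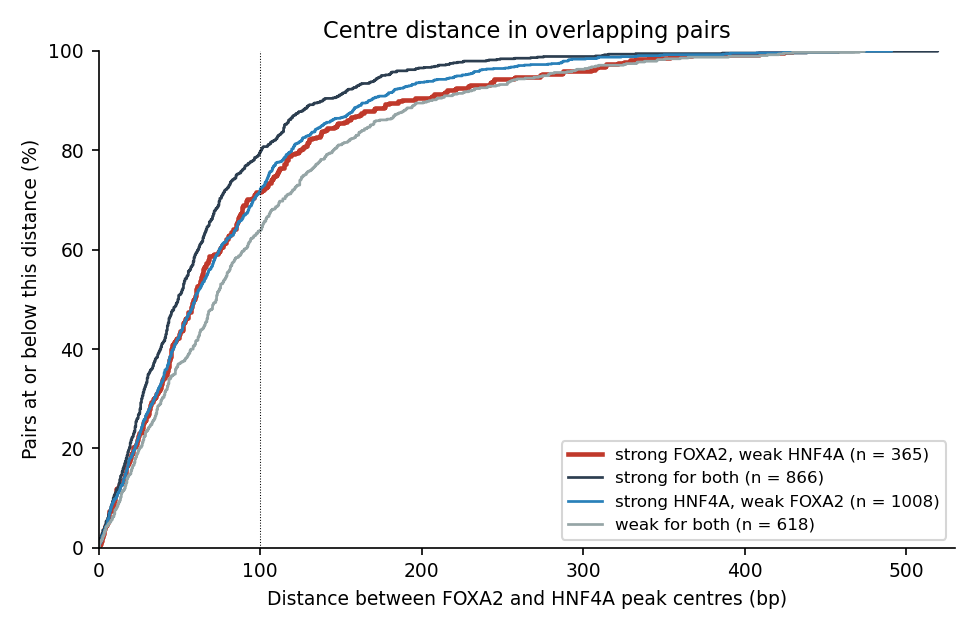
Cumulative share of pairs (y axis, %) by distance between FOXA2 and HNF4A centres (x axis, bp), 1 line per group of pairs, with a dotted line at 100 bp. The line of the 365 strong FOXA2 pairs with weak HNF4A crosses it at 71.5%, below the pairs strong for both at 79.8% and above the pairs weak for both at 63.9%.

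Holding the FOXA2 score constant left the same order. At FOXA2 scores of 26 to 34, 69.0% of pairs with weak HNF4A had centres within 100 bp (60.5 to 76.5%, n = 126) and 79.6% of pairs with strong HNF4A did (74.6 to 83.9%, n = 285). At scores of 50 or more the values were 81.0% with weak HNF4A (69.6 to 88.8%, n = 63) and 85.3% with strong HNF4A (79.2 to 89.8%, n = 170). The median distance was longer with weak HNF4A in each of the 4 FOXA2 score classes, by as much as 62.5 against 52.5 bp at 26 to 34. The intervals of the shares within 100 bp overlapped in every class. Holding the HNF4A score constant, pairs with HNF4A scores of 16 to 18 had a median distance of 62 bp with strong FOXA2 (n = 169) and 75 bp with weak FOXA2 (n = 302). At HNF4A scores of 19 to 22 the medians were 52.8 bp with strong FOXA2 (n = 196) and 67 bp with weak FOXA2 (n = 316).

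A tail of pairs had centres well apart: 9.59% of the strong FOXA2 pairs with weak HNF4A exceeded 200 bp (35 of 365, 6.98 to 13.0%), against 3.46% of pairs strong for both (30 of 866, 2.44 to 4.90%). The figure was 6.38% over all other pairs (5.49 to 7.41%), an interval that overlapped that of the strong FOXA2 pairs with weak HNF4A. It was 6.35% with strong HNF4A and weak FOXA2, and 10.5% where both were weak. The 5 longest distances ran from 354 to 429.5 bp. The longest was on chromosome 5, where FOXA2 at 91069637 to 91069926 (score 23) lay inside an HNF4A peak of 1547 bp at 91069438 to 91070984 (score 19). It is the widest HNF4A peak among the pairs.

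Next came chromosome 2 at 52459670 to 52460048 (FOXA2 score 38), whose HNF4A peak of score 16 overlapped it by 82 bp. Chromosome 13 at 52007180 to 52007504 (FOXA2 score 24) followed, 538 bp from another FOXA2 centre under the same HNF4A peak of score 21. On chromosome 12, FOXA2 at 113028871 to 113029290 (score 22) lay toward the right end of an HNF4A peak 1029 bp wide. On chromosome 17, FOXA2 at 32010599 to 32010936 (score 25) touched its HNF4A peak (score 16) by only 19 bp. In these 5 pairs, either FOXA2 lay toward the end of a broad HNF4A peak or the peaks overlapped in part.

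Centres fell on the other factor's peak in nearly all pairs. Each centre lay inside the other peak in 90.4% of the strong FOXA2 pairs with weak HNF4A (87.0 to 93.0%), in 95.8% of pairs strong for both (94.3 to 97.0%) and in 88.0% of pairs weak for both (85.2 to 90.4%). Neither centre was inside the other peak in 9 of the 365 pairs. The HNF4A centre lay to the right of the FOXA2 centre, toward higher coordinates, in 216 pairs and to the left in 148, a share of 59.2% to the right (54.1 to 64.1%). The other pairs showed 58.5% to the right (56.6 to 60.4%). The lean was common to all pairs, with a median signed distance of 17.5 bp over the 2857, and coordinates carry no gene direction, so it does not distinguish these sites.

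The factors differed in width at these sites. FOXA2 peaks of the strong FOXA2 pairs with weak HNF4A were 357 bp wide at the median, with quartiles at 337 and 385 bp, and their HNF4A partners were 455 bp wide, with quartiles at 379 and 583 bp. The HNF4A peak was the wider in 77.5% of pairs, by a median of 89 bp. In pairs strong for both, FOXA2 peaks had a median of 362 bp and HNF4A peaks 429 bp (381 to 520 bp). HNF4A peaks over 600 bp made up 22.7% with strong FOXA2 and weak HNF4A (83 of 365, 18.7 to 27.3%), 13.7% in pairs strong for both (11.6 to 16.2%) and 25.1% in pairs weak for both (21.8 to 28.6%). Weak HNF4A peaks were therefore often broad whether their FOXA2 partner was strong or weak.

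Weak HNF4A peaks without any FOXA2 overlap gave a further comparison. The 4553 of them away from input were 440 bp wide at the median (interval 435 to 445 bp), against 455 bp under strong FOXA2 (434 to 480 bp). Within the pairs the median HNF4A width was 493 bp for HNF4A scores of 16 to 18 and 431 bp for scores of 19 to 22. It did not fall evenly, being 514 bp at a score of 19, and the Spearman rho of width and score was -0.16 over the 365 pairs. The median FOXA2 width was 363 bp at FOXA2 scores of 22 to 25 and 349 bp at 50 or more (rho -0.13). Strong FOXA2 peaks without HNF4A overlap, 1149 in number, had a median of 351 bp (349 to 354 bp), against 357 bp in the pairs (353 to 364 bp). FOXA2 peaks over 500 bp were few in all of these: 5.48% of the pairs with weak HNF4A (3.57 to 8.31%), 4.62% of the pairs strong for both (3.41 to 6.23%) and 2.61% of strong FOXA2 peaks without HNF4A (1.83 to 3.70%).

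**Figure D4:**
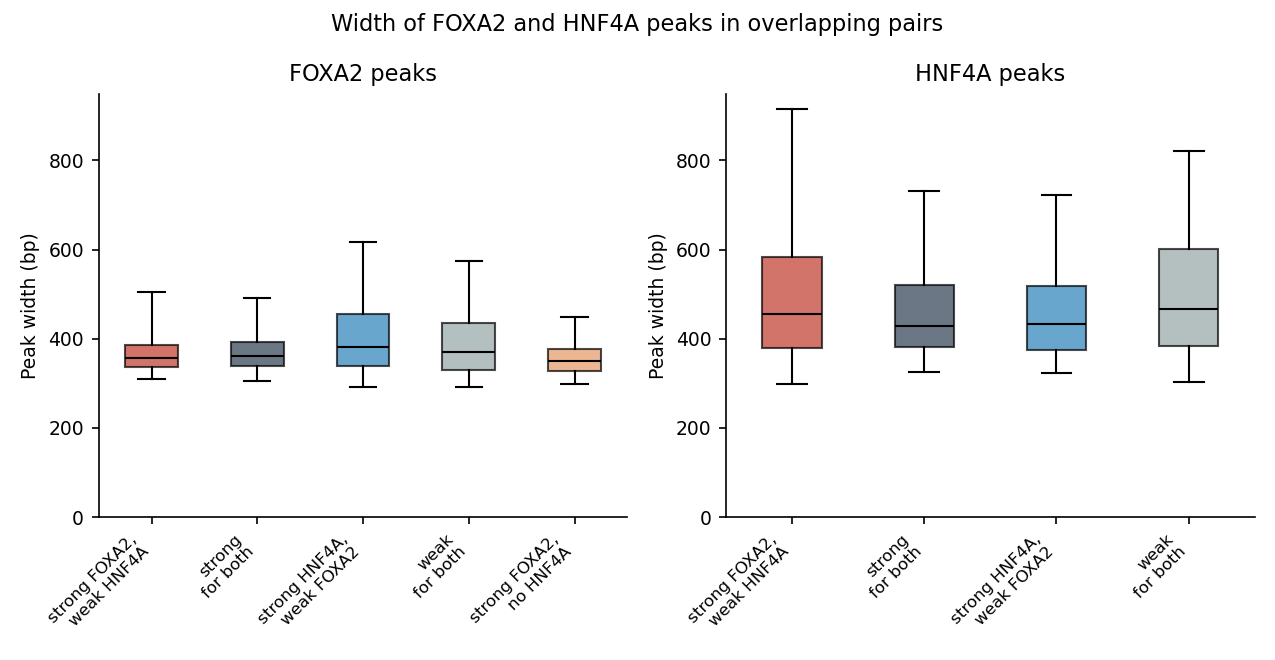
Peak width in bp (y axis) of FOXA2 peaks (left panel) and HNF4A peaks (right panel) by group of pairs, with strong FOXA2 peaks that overlap no HNF4A peak added at the left panel's right end. Lines are medians, boxes the interquartile range and whiskers the 5th to 95th percentiles; FOXA2 medians of the strong groups lie between 351 and 362 bp, and weak HNF4A peaks reach the greatest widths.

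Width and overlap geometry went together. The FOXA2 peak lay wholly inside the HNF4A peak in 43.0% of the strong FOXA2 pairs with weak HNF4A (157 of 365, 38.0 to 48.1%), against 33.3% of the other pairs (31.5 to 35.2%). Among pairs strong for both the share was 37.2% (34.03 to 40.5%), and among pairs weak for both 34.8% (31.1 to 38.6%). Both intervals overlapped that of the strong FOXA2 pairs with weak HNF4A. Pairs strong for HNF4A with weak FOXA2 had the lowest share, 29.1% (26.3 to 31.9%). At FOXA2 scores of 26 to 34 the share was 35.7% with weak HNF4A and 36.5% with strong HNF4A. In each other class of strong FOXA2 scores it was higher with weak HNF4A. The reverse, an HNF4A peak inside a FOXA2 peak, occurred in 22 of the 365 pairs. A median of 96.5% of the FOXA2 peak was covered by HNF4A, and 71.8% of the HNF4A peak by FOXA2. Centre distance went with HNF4A width (Spearman rho 0.42 over the 365 pairs, a description of peaks from the same libraries). Wider peaks can overlap with their centres farther apart, so this relation is partly built into the pairing. Centre distance was only weakly related to the FOXA2 score (rho -0.05) or the HNF4A score (rho -0.10).

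With HNF4A peaks under 400 bp, 89.8% of the strong FOXA2 pairs with weak HNF4A had centres within 100 bp (n = 118), against 84.9% of other pairs (n = 866). With HNF4A peaks of 600 bp or more the shares were 39.8% (n = 83) and 41.0% of other pairs (n = 407). At a given HNF4A width, therefore, the centres of these pairs were about as close as those of other pairs. HNF4A peaks over 1000 bp occurred in 2.74% of the strong FOXA2 pairs with weak HNF4A (10 of 365). The share was 0.682% in other pairs (17 of 2492), and 1.13% in those weak for both. Of the 10, 8 held the whole FOXA2 peak. That count was not made in other pairs, and wide peaks readily hold a narrow one, so nothing is read from it. On chromosome 13 a FOXA2 peak at 21546059 to 21546486 (score 47) was centred 13 bp from the middle of an HNF4A peak of 1030 bp. On chromosome 16 a FOXA2 peak at 30053242 to 30053642 (score 23) was centred 6.5 bp from the middle of one of 1004 bp. Broad HNF4A peaks thus held FOXA2 both at their middle and toward an end.

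Further peaks were common around the pairs. Leaving out the pair itself, 40.3% of the strong FOXA2 pairs with weak HNF4A had another HNF4A peak within 10 kb (147 of 365, 35.4 to 45.4%), against 40.0% of other pairs (38.1 to 41.9%). Another FOXA2 peak lay within 10 kb in 32.1% of them (117 of 365, 27.5 to 37.0%) and in 27.7% of other pairs (25.97 to 29.5%). Within 50 kb the shares were 72.9% for HNF4A (68.1 to 77.2%) and 63.8% for FOXA2 (58.8 to 68.6%), against 74.9% and 64.8% for other pairs. No further peak of either factor lay within 50 kb in 16.7% of the pairs with weak HNF4A, and the same share, 16.7%, of the others. Split by score, the others were not alike. A further FOXA2 peak lay within 10 kb of 30.4% of pairs strong for both and 23.9% of pairs weak for both (20.8 to 27.5%). With strong HNF4A and weak FOXA2 it was 27.7%. For further HNF4A peaks within 10 kb these shares were 42.4%, 34.3% and 41.4%. None of these differences was tested.

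In further peaks nearby, the larger gap was to strong FOXA2 peaks without HNF4A, not to other pairs. Of those 1149 peaks, 27.9% had an HNF4A peak within 10 kb (25.3 to 30.5%) and 19.4% another FOXA2 peak (17.2 to 21.8%). Within 50 kb the shares were 62.1% for HNF4A (59.3 to 64.9%) and 52.8% for FOXA2 (49.9 to 55.7%). All 4 intervals lay below those of the strong FOXA2 pairs with weak HNF4A. Neighbouring peaks are not independent, so the intervals are too narrow, and this difference was not tested. Scores were not matched here either: the unpaired FOXA2 peaks had a median score of 29, against 31 in the pairs.

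**Figure D5:**
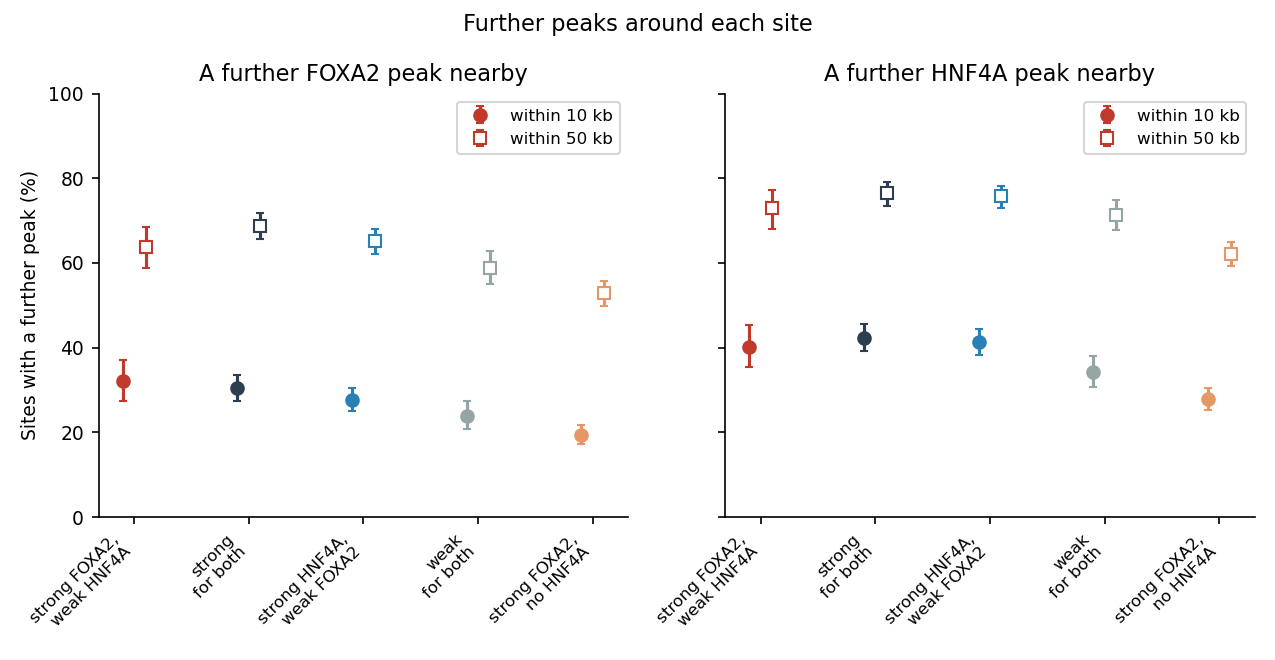
Share of sites (y axis, %) with a further FOXA2 peak (left panel) or HNF4A peak (right panel) within 10 kb (filled circles) or 50 kb (open squares) of the FOXA2 centre; bars are 95% Wilson intervals. In each panel strong FOXA2 peaks without HNF4A stand lowest, at 19.4% and 27.9% within 10 kb, against 32.1% and 40.3% for the strong FOXA2 pairs with weak HNF4A.

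The density of further peaks was read by distance from the FOXA2 centre. Further HNF4A peaks numbered 0.219 per 10 kb within 1 kb, 0.384 at 1 to 2 kb, 0.269 at 2 to 5 kb, 0.233 at 5 to 10 kb and 0.110 at 50 to 100 kb. At 1 to 2 kb, 5 to 10 kb and 50 to 100 kb the densities were 0.468, 0.256 and 0.121 for pairs strong for both. For strong FOXA2 peaks without HNF4A they were 0.261, 0.158 and 0.0969 at the same distances. Further FOXA2 peaks around the pairs with weak HNF4A numbered 0.219 per 10 kb within 1 kb and 0.260 at 1 to 2 kb. Farther out they numbered 0.142 at 2 to 5 kb, 0.170 at 5 to 10 kb and 0.0792 at 50 to 100 kb. Both factors were sparsest at 50 to 100 kb. The pair's own peaks take up part of the first kilobase, and no further FOXA2 centre lay closer than 346.5 bp. The lower density there is therefore not read against that at 1 to 2 kb.

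The score of the neighbours was also counted. Of the whole HNF4A list, 52.5% scored over 22. That is a share of peaks, and it cannot be set against the shares of sites below, which also depend on the number of neighbours. An HNF4A peak of score over 22 lay within 50 kb of 54.2% of the strong FOXA2 pairs with weak HNF4A (49.1 to 59.3%), against 59.4% of pairs strong for both (56.0 to 62.6%), 53.2% of pairs weak for both (49.3 to 57.1%) and 44.0% of strong FOXA2 peaks without HNF4A (41.1 to 46.8%). Within 10 kb the share was 23.01% for the pairs with weak HNF4A (18.99 to 27.6%) and 16.7% for strong FOXA2 peaks without HNF4A (14.7 to 18.98%). Another strong FOXA2 peak lay within 50 kb of 27.9% of the pairs with weak HNF4A (23.6 to 32.8%). The share was 29.7% in other pairs (27.9 to 31.5%) and 22.7% in strong FOXA2 peaks without HNF4A (20.4 to 25.2%). Strong peaks were 25.6% of the FOXA2 list, so these shares are not compared with those for HNF4A. A further overlapping pair lay within 50 kb of 35.3% of the pairs with weak HNF4A (30.6 to 40.4%), against 37.2% of other pairs (35.3 to 39.1%).

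The pairs with the most further peaks within 50 kb had 10 or 11, and 5 of the 6 such pairs are named here, ties being broken by position. On chromosome 17 a FOXA2 peak at 47599591 to 47599947 (score 26) had 8 further HNF4A and 3 further FOXA2 peaks. On chromosome 8, FOXA2 at 93903234 to 93903586 (score 36) had 6 further HNF4A and 5 further FOXA2 peaks. On chromosome 10, FOXA2 at 127058691 to 127059155 (score 23) had 6 further HNF4A and 4 further FOXA2 peaks. On chromosome 5, FOXA2 at 65745292 to 65745661 (score 65) had the same numbers, among them an HNF4A peak of score 139. Also on chromosome 5, FOXA2 at 106221439 to 106221779 (score 34) had 7 further HNF4A and 3 further FOXA2 peaks. Of these 5, the fourth alone combined a FOXA2 score over 50 with such a neighbourhood.

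Chaining the pairs themselves at most 100 kb apart left 332 of the 365 alone, with 15 runs of 2 and a single run of 3. That run spanned 21.7 kb on chromosome 6 at 72222023 to 72243686, with FOXA2 scores of 64, 27 and 23. It held 3 FOXA2 peaks and 2 HNF4A peaks, so 2 of its FOXA2 peaks shared an HNF4A peak. In 6 of the 365 pairs the HNF4A peak overlapped a second FOXA2 peak, and in 1 pair the FOXA2 peak overlapped a second HNF4A peak. The median gap between neighbouring pairs of a chromosome was 3850 kb. No such counts from other groups of pairs are given, and this few pairs over a whole genome mostly lie far apart. Nothing is therefore read from these counts about how the pairs are spread.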

How the data were processed

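ChIP-seq peak lists from 3 libraries of DLK1+ hepatoblasts were used. The authors deposited 1 list per library with chromosome, start, end and a whole-number score, without a header. Positions are mm9, per the submitters' processing notes, and were read as 1-based, both ends counted. The deposited score is undefined, and the aligner, caller and threshold are likewise not given in the sources here. A closing line without a region in the FOXA2 list was skipped, and chromosome prefixes were removed. Library depth is unknown.

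Overlap, centre distance, width and distance to input were computed for every pair. Further peaks were counted by their centre's distance from the pair's FOXA2 centre, leaving out the pair. Shares carry 95% Wilson intervals and medians carry binomial intervals from ranked values, covering counting error only. The computation was tested on simulated data with planted pairs. The pairs, limits and comparisons were chosen with earlier results of these data known, and the scores come from the same lists as width, distance and neighbours, so no test was run. Named regions are the 10 pairs of highest FOXA2 score, the 5 of longest centre distance, the 5 with most further peaks within 50 kb and runs of 3 or more pairs; the HNF4A peaks over 1000 bp, the dropped pair and the X chromosome were chosen after their values were seen. Settings tried concerned score limits, input distance, overlap, sex chromosomes and centre distance. Sequence, motifs and genes near the peaks were not analysed here, because the gene tables used another build than the peaks. Tables were made with pandas 2.3.3 and numpy 2.4.6 under Python 3.11.15, intervals with scipy 1.17.1 and plots with matplotlib 3.10.9.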

Additional observations from a re-analysis of the deposited data

How the results depend on the processing

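Under 8 planned settings and 2 chosen after seeing the data, 70 values were recomputed. Of these, 64 stayed within the interval of the reported value, or for the number of pairs within 1.5 times of it. Settings on input distance, overlap, one-to-one pairs and autosomes kept 356 to 366 pairs. Values under those settings could hardly move, so the count of unmoved values is no measure of robustness. With the FOXA2 limit raised to 30 there were 208 pairs, and with the HNF4A limit lowered to 18 there were 169; fewer pairs can pass stricter limits. With the HNF4A limit at 18 the median HNF4A width was 493 bp, and 26.6% of pairs had a further FOXA2 peak within 10 kb; the cause was not tested. Leaving out pairs with an HNF4A peak wider than 600 bp was chosen after seeing the data. It gave a median centre distance of 48.3 bp and 80.9% of pairs with centres within 100 bp. Wider peaks can overlap with their centres farther apart, so this change is partly built in. Subtracting the common signed distance of 17.5 bp, also chosen after seeing the data, gave a median of 57 bp. The median distance of the strong FOXA2 pairs with weak HNF4A minus that of other pairs was 0.25 bp and took either sign, within its interval of -6.68 to 7.18 bp. No paired analysis was possible because there is 1 library per group and no result comes from a test. Leaving out replicates was not possible for the same reason. Unknown depth limits every score: an HNF4A peak at 16 stands at the end of its list, so FOXA2 peaks with slightly less HNF4A signal are counted as without HNF4A.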

Other observations

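Chromosomes differed in how many of the pairs they held. On autosomes the strong FOXA2 pairs with weak HNF4A made up between 8.93% of overlapping pairs on chromosome 1 (20 of 224, 5.85 to 13.4%) and 17.4% on chromosome 18 (16 of 92), with overlapping Wilson intervals. Chromosome 6 held the most, 32 of 204 pairs. The X chromosome held 0 of 35 pairs, which allows a share of up to 8.57% by the limit of 3 counts, or 9.89% by the Wilson interval. On X, 5 of the 35 pairs had a FOXA2 score of 22 or more, or 14.3%, against 33.5 to 51.9% on the autosomes. An HNF4A score of 22 or less was found in 8 of 35, or 22.9%, against 27.2 to 46.1% on the autosomes. With 35 pairs and both shares below those of every autosome, nothing is read from the count of 0. The median FOXA2 score of the X pairs was 15. The only pair on X that met both score limits was the one dropped beside input, with a FOXA2 peak at 166418785 to 166419190 inside an HNF4A peak of 1424 bp.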
